A study of Mus musculus with 45 samples.

Results

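Livers of chow-fed mice given metformin were compared with basal livers of chow-fed mice, across all genes. The comparison uses 6 of the 45 libraries of the series. They are the 3 libraries of the metformin group on chow and the 3 libraries of the basal group on chow, chosen by their sample labels alone. All 6 came from wild-type C57BL/6J mice that ate a standard chow, were 24 weeks old and had been starved overnight before the liver was frozen. The metformin mice had received the drug in their drinking water, at 270 mg per kg of lean body mass per day. The labels give a start at 8 or 18 weeks of age and do not say which of the starts applied to the chow mice, so the length of treatment on chow is not known here. The basal mice had received neither metformin nor insulin. The rest of the series holds basal and metformin livers after 6 or 16 weeks of high-fat diet (HFD) and livers sampled after insulin. Groups had 3 or more mice by the submitters' design text. Which animal a library came from is not labelled, so p-values measure a spread between libraries. In the main fit that spread was estimated within groups over all 45 libraries, not over these 6 alone.

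Metformin is a biguanide used to lower blood glucose in type 2 diabetes. It enters hepatocytes through organic cation transporters and leaves through the exporter Slc47a1. Described targets in hepatocytes are complex I of the respiratory chain, the kinase AMPK and mitochondrial glycerol-3-phosphate dehydrogenase, encoded by Gpd2, and the best known outcome is lower glucose production.

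Depth was 20316596, 19148048 and 21577027 counted reads in metformin replicates 1, 2 and 3, against 45741794, 19131339 and 19016275 counted reads in basal replicates 1, 2 and 3. The 14 hepatocyte marker genes were all detected and summed to 126244, 134369 and 130718 in CPM (counts per 1000000 reads, with TMM scaling) in metformin livers, against 115093, 115453 and 122681 CPM in basal livers. Albumin (Alb) alone had 71493, 78754 and 75195 CPM of this in metformin livers, against 63496, 61750 and 68983 CPM in basal livers. Of the 14 markers 7 were higher and 7 lower with metformin, with a median log2 difference of 0.00. The metformin libraries were deposited in a count table of their own. No label gives a date of library preparation or sequencing, and a batch shared by the metformin libraries and the effect of metformin cannot be told apart. In bulk liver, fewer cells of a type and less RNA per cell cannot be told apart either.

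Fold change fell with the length of the transcript. Over all 14067 genes that passed the filter on low counts, the log2 fold change of metformin over basal had a Spearman correlation of -0.28 with exon length, a correlation across genes, which are not independent replicates. When genes were put into 10 bins of exon length, the median log2 fold change was 0.19 in the shortest bin, 60 to 1136 bases, and -0.10 in the longest, 6218 to 104320 bases. Each library's deviations from the gene means over all 45 libraries were correlated with exon length at -0.22, -0.19 and -0.13 in metformin replicates 1, 2 and 3, against -0.01, 0.08 and 0.11 in basal replicates 1, 2 and 3. The same trend was present in the other metformin libraries: the 9 metformin libraries of the series ranged from -0.61 to -0.13 and the 36 other libraries from -0.22 to 0.29. On the HFD diets the correlation of the metformin fold change with length was -0.46 after 6 weeks and -0.47 after 16 weeks. Its part in any one gene's change was not tested, so the counts over all genes and over the gene lists on chow are given also after the trend of each library with exon length was removed.

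**Figure D1:**
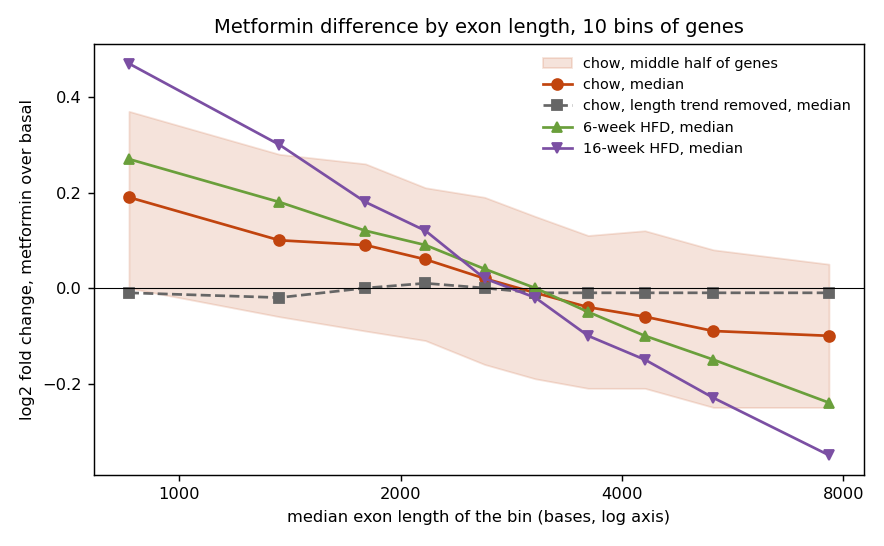
Median log2 fold change of metformin over basal (vertical axis) against the median exon length of 10 bins of genes (horizontal axis, bases, log axis), on chow before and after removal of the length trend and on both HFD diets; the shaded band holds the middle 50% of genes on chow. The chow medians run from 0.19 in the shortest bin to -0.10 in the longest, and lie within 0.02 of 0 after removal.

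Few genes passed the test of metformin against basal on chow, with 3 libraries in each group. With edgeR's quasi-likelihood test and Benjamini-Hochberg adjustment at a false discovery rate of 0.05, 273 genes were called, 1.94% of those tested. Of these, 179 (1.27%) were higher and 94 (0.668%) were lower in metformin livers, and 39 of the higher and 19 of the lower genes differed by more than 2-fold. With the length trend removed, 327 genes (2.32%) were called, 167 (1.19%) higher and 160 (1.14%) lower, and 209 genes were called in both fits. Without that removal 2253 of all 14067 genes had an unadjusted p below 0.05 in edgeR, and 27.4% did not overlap between the groups. The count also depended on the fit, with 472 calls by DESeq2 and 518 by edgeR on only the groups compared. The called genes that were higher were short, with a median exon length of 1635 bases, against 3485 bases in the called lower genes and 2816 bases in all genes tested. Exon sequence shared with other genes was common among the calls. Of the called higher genes 31.8%, and of the called lower genes 26.6%, shared at least 20% of their 40-base exon words with transcripts of other genes, against 11.7% of all genes tested; such genes are named as uncertain below, because the counting could have split their reads.

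Of the 273 genes, 27 were called in the same direction in all 16 fits that were run, a set singled out after the values were seen, 15 higher and 12 lower. Only 7 of the 27 had fewer than 20% shared words and no exon overlap with another gene. They were Tead1, A430078G23Rik and Gm5434, which were lower, and Taf15, Ring1, 0910001L09Rik and Abca8a, which were higher. Tead1 encodes a DNA-binding partner of the Hippo pathway's coactivators Yap and Taz (mm9 chr7:119822834-120050319, plus strand). It had 10.0, 9.56 and 10.1 CPM in metformin livers, against 19.1, 30.9 and 22.8 CPM in basal livers. Tead1 fell by 1.29 ± 0.21 on the log2 scale (standard error of the edgeR fit, adjusted p = 4.79e-04). The groups did not overlap, which a rule that named Tead1 required and which held for 27.4% of all genes tested. Taf15, an RNA-binding protein of the FET family, had the smallest adjusted p of the 7. It had 69.9, 72.2 and 66.5 CPM in metformin livers, against 45.7, 45 and 46.7 CPM in basal livers (0.60 ± 0.08, edgeR adjusted p = 1.53e-05). Ring1, a subunit of Polycomb repressive complex 1, had 19.2, 16.8 and 17.9 CPM in metformin livers, against 13.0, 10.9 and 9.71 CPM in basal livers (0.68 ± 0.13). Abca8a, an ABC transporter of the lipid-transporting A subfamily, was at 61.9, 65.0 and 44.7 CPM in metformin livers, against 29.4, 30.1 and 25.6 CPM in basal livers (1.01 ± 0.20, edgeR adjusted p = 0.00411). For Abca8a the metformin difference was 0.21 ± 0.20 after 6 weeks and 0.13 ± 0.20 after 16 weeks of HFD, and the difference between diets was not called. Gm5434 was under 2 CPM in all 6 libraries.

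**Figure D2:**
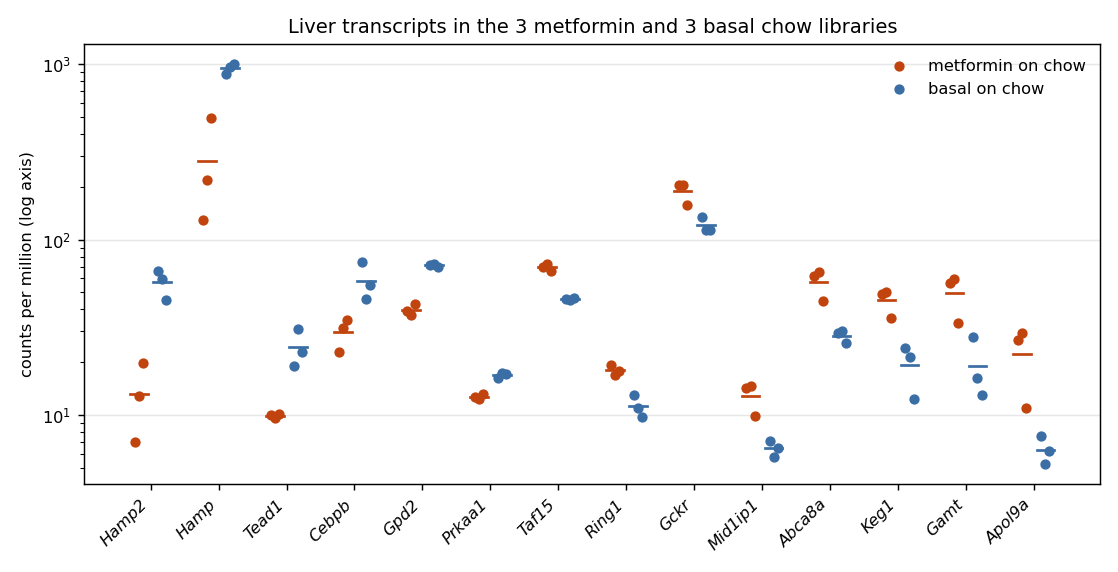
CPM in each library (vertical axis, log axis) for 14 genes (horizontal axis), with the 3 metformin livers on chow to the left and the 3 basal livers on chow to the right of each gene; horizontal lines are group means. For each of the 14 genes the groups do not overlap, with Hamp2, Hamp, Tead1, Cebpb, Gpd2 and Prkaa1 below and the other 8 genes above the basal livers. Of all genes tested 27.4% do not overlap. Hamp2, Tead1, Cebpb, Gpd2, Keg1, Gamt and Apol9a were picked under a rule that required no overlap.

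Of the hepcidin genes, Hamp2 fell, and Hamp was lower in every metformin liver without passing the test. Hepcidin is the peptide hormone that closes the iron exporter ferroportin (Slc40a1), and the mouse has a pair of neighbouring genes for it, Hamp and Hamp2, of which Hamp encodes the iron-regulating peptide. Hamp2 (mm9 chr7:31707391-31709200, minus strand) was at 7.02, 12.8 and 19.7 CPM in metformin livers, against 66.6, 59.2 and 45 CPM in basal livers. The groups did not overlap, which a rule that named Hamp2 required and which held for 27.4% of all genes tested. The log2 difference was -2.11 ± 0.38 (edgeR adjusted p = 0.00115), and Hamp2 was called in all 16 fits. Hamp was at 129, 218 and 490 CPM in metformin livers, against 880, 961 and 1002 CPM in basal livers. Here too every metformin liver lay below every basal liver, but the difference of -1.76 ± 0.50 missed the threshold (edgeR adjusted p = 0.0554). It passed with the length trend removed (-2.04 ± 0.53, adjusted p = 0.0324), within a range of 0.00869 to 0.247 over 15 alternatives. Hamp2 shares 26.8% and Hamp 24.8% of its exon words with other genes, so reads of the pair may have been exchanged and their separate values are uncertain.

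The promoters of the pair are shown because both transcripts were low together and because their letters differ at a known control element. The bases before the start site come from RefSeq (GRCm38.p6), Hamp from chr7:30944030-30944279 and Hamp2 from chr7:30924182-30924431, both on the minus strand, printed 5′ to 3′. Capitals mark TTCNNNGAA, the letters of a STAT-type site, and GGCGCC, the letters of the BMP-responsive element described in the human hepcidin promoter; both motifs read the same on both strands.
Hamp: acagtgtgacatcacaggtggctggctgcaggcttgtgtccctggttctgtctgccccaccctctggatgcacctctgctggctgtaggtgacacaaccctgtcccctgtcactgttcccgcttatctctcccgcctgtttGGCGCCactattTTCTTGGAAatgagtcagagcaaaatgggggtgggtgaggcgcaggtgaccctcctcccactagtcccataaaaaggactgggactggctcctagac
Hamp2: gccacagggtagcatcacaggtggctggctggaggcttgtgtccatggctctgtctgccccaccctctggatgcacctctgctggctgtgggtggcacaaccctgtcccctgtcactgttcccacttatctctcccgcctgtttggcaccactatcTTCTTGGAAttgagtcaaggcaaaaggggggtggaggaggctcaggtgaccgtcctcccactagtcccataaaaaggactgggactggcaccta
The aligned sequences are 91.9% identical over 247 columns. TTCNNNGAA lies at bases -97 to -89 of Hamp and -94 to -86 of Hamp2, and GGCGCC lies at bases -109 to -104 of Hamp and is not among these letters of Hamp2. Of 32851 promoter windows of the same length, 7.02% hold TTCNNNGAA and 9.59% hold GGCGCC.

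No other gene of the iron list was called. Of its 17 tested genes, 1 was called lower and none higher, which is 5.88% of the list beside 1.94% of all genes tested. The median log2 difference was -0.20, beside 0.01 over all genes tested. After removal of the length trend 2 were called lower, Hamp2 and Hamp. Id1, Id3 and Smad7, target genes of the BMP signalling that drives hepcidin, were not called. Id1 had 3.24, 3.46 and 9.71 CPM in metformin livers, against 8.09, 9.56 and 7.22 CPM in basal livers (edgeR adjusted p = 0.651), with metformin replicate 3 above every basal liver. Id3 had 14.4, 13.3 and 24.9 CPM in metformin livers, against 28.3, 46.4 and 25.1 CPM in basal livers (-0.91 ± 0.38, edgeR adjusted p = 0.213). Smad7, an inhibitor of the same pathway, had 5.63, 6.57 and 11.2 CPM in metformin livers, against 14.4, 14.8 and 8.76 CPM in basal livers, and the groups overlapped. Bmp6, the ligand made mainly by liver endothelium, was at -0.81 ± 0.29 (edgeR adjusted p = 0.145). The 14 endothelial markers summed to 414, 291 and 421 CPM in metformin livers, against 356, 461 and 510 CPM in basal livers, and their part in the Bmp6 value was not tested. Slc40a1, ferroportin itself, had 112, 123 and 139 CPM in metformin livers, against 145, 145 and 174 CPM in basal livers (-0.31 ± 0.19, edgeR adjusted p = 0.444). Hamp, Id1, Id3, Smad7, Bmp6 and Slc40a1 were picked out after their values were seen.

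Among the genes tied directly to metformin action, Gpd2 and Prkaa1 fell. Gpd2 (mm9 chr2:57090089-57223130, plus strand) encodes the mitochondrial enzyme of the glycerol phosphate shuttle. It was at 38.9, 37.3 and 42.8 CPM in metformin livers, against 71.4, 72.8 and 69.4 CPM in basal livers. The spread within each group was small beside the gap between them, and the log2 difference was -0.84 ± 0.22 (edgeR adjusted p = 0.0344) and -0.76 with the length trend removed (adjusted p = 0.0428). The fall held its size, from -0.90 to -0.80, when each library was left out in turn, while the adjusted p ran from 0.0475 to 0.168 and passed only without metformin replicate 3. The call was thus lost without metformin replicate 1 or 2 or any of the basal libraries. On the other diets the metformin difference of Gpd2 was -0.47 after 6 weeks and 0.00 after 16 weeks of HFD, and neither was called, nor was the difference between the diets.

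For the catalytic subunits of AMPK, Prkaa1 was called and Prkaa2 was not, and the difference between them was not tested. Prkaa1, the alpha-1 subunit, was at 12.6, 12.4 and 13.2 CPM in metformin livers, against 16.3, 17.3 and 17.2 CPM in basal livers. It fell by 0.41 ± 0.11 on the log2 scale (edgeR adjusted p = 0.0436), did not overlap between groups, and lost the call in all 6 fits that left out 1 library, where the adjusted p ran from 0.0569 to 0.183. Prkaa2, the alpha-2 subunit, was at 63.9, 95.1 and 91.8 CPM in metformin livers, against 93.9, 92.2 and 101 CPM in basal livers (-0.19 ± 0.13, edgeR adjusted p = 0.484). Prkag2, a regulatory gamma subunit, was at 31.1, 28.0 and 24.0 CPM in metformin livers, against 20.1, 19.8 and 22.1 CPM in basal livers. Its difference of 0.42 ± 0.12 missed the threshold (edgeR adjusted p = 0.0608) and passed with the length trend removed (adjusted p = 0.0401). Prkaa1 was the only one of the 13 genes of the AMPK and LKB1 list that was called, which is 7.69% beside 1.94% of all genes tested. After removal of the length trend 1 was higher and 1 lower, where 2.32% of all genes tested were called. None of 6 tested transporters was called by edgeR, at an unadjusted p below 0.05 or by DESeq2. Slc47a1 had 117, 127 and 102 CPM in metformin livers, against 110, 90.8 and 87.4 CPM in basal livers, and the groups overlapped (0.26 ± 0.16, edgeR adjusted p = 0.439).

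Of 18 genes of glucose production, Gpd2 alone was called, with or without the length trend. This is 5.56% of the list, beside 1.94% of all genes tested, and the median log2 difference was 0.08. G6pc, the last step of glucose release, had 425, 421 and 660 CPM in metformin livers, against 415, 439 and 458 CPM in basal livers (0.20 ± 0.36, edgeR adjusted p = 0.831). Pck1, the entry step of gluconeogenesis, had 4345, 5240 and 5060 CPM in metformin livers, against 4131, 2869 and 4059 CPM in basal livers, a difference of 0.41 ± 0.22 that missed the threshold although the groups did not overlap (edgeR adjusted p = 0.370). Of 18 insulin and FoxO target genes none was called by edgeR or DESeq2, with 3 at an unadjusted p below 0.05. Igfbp1 was at 0.13 ± 0.51 and Irs2, which overlaps a gene on the opposite strand, at -0.45 ± 0.45. Igfbp1 had 148, 133 and 410 CPM in metformin livers, against 191, 162 and 279 CPM in basal livers. Its standard error comes from the fit of all 45 libraries, not from these 6 alone.

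On the side of glucose use, 2 of 22 genes were called, both higher, which is 9.09% of the list beside 1.94% of all genes tested. After removal of the length trend 3 were called higher. Gckr, a nuclear regulatory protein that inhibits glucokinase (mm9 chr5:31599954-31629675, plus strand), was at 204, 206 and 157 CPM in metformin livers, against 135, 114 and 114 CPM in basal livers. The difference of 0.65 ± 0.13 was called (edgeR adjusted p = 0.00637), also with the length trend removed (0.58, adjusted p = 0.00812). It was lost without metformin replicate 2, basal replicate 2 or basal replicate 3, with an adjusted p of up to 0.0701. The other call, Eno1, rests on fewer than 1 CPM in all 6 libraries and shares 27.3% of its exon words with other genes, Gm5506 among them, so it is uncertain. The median of the list was 0.25, beside 0.01 over all genes tested.

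A few subunits of the respiratory chain rose, and fewer did so after removal of the length trend. Their median exon length was 666 bases in complex I and 692 bases in complexes II to V. Of 36 complex I genes 33 had a positive log2 difference, where 7280 of all 14067 genes did, and the median was 0.25. Of the 36, 2 were called higher, which is 5.56% of the list beside 1.94% of all genes tested. Ndufa1 was at 74.9, 81.7 and 69.0 CPM in metformin livers, against 53.3, 51.7 and 48.7 CPM in basal livers (0.55 ± 0.10, edgeR adjusted p = 0.00129). Ndufa7 rose by 0.43 ± 0.11 (edgeR adjusted p = 0.0272), a call lost without metformin replicate 1 or 2 or basal replicate 2 or 3 (adjusted p up to 0.204). After removal of the length trend the median was 0.07, neither gene was called, and 2 other complex I genes were called lower. Of 39 genes of complexes II to V, 5 were called higher and none lower, which is 12.8% of the list. The median was 0.18. The same fit after removal had 2 higher and 1 lower, and a median of 0.03. Cox7c, a small subunit of cytochrome c oxidase, was called higher in all 16 fits. It had 194, 215 and 195 CPM in metformin livers, against 110, 105 and 97.8 CPM in basal livers (0.95 ± 0.13, edgeR adjusted p = 4.56e-05). Its difference was 0.67 with the length trend removed, and 23.2% of its exon words occur in other genes, so its level is uncertain. Uqcrq of complex III was at 192, 182 and 183 CPM in metformin livers, against 127, 115 and 113 CPM in basal livers (0.65 ± 0.14, edgeR adjusted p = 0.0109). Its difference was 0.39 after removal of the length trend (adjusted p = 0.00169), and the call was lost without basal replicate 2 or 3 (adjusted p up to 0.0795).

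Cytosolic ribosomal protein genes had calls in one direction and ribosome biogenesis genes in the other. Of 53 genes of cytosolic ribosomal proteins, 6 were called higher and none lower, which is 11.3% of the list beside 1.94% of all genes tested. The median was 0.24. After length removal the median was 0.05 and the calls were 3 higher and 2 lower. Rpl37 had 124, 127 and 130 CPM in metformin livers, against 90.7, 90.8 and 89.1 CPM in basal livers (0.50 ± 0.11, edgeR adjusted p = 0.00876), a call lost without basal replicate 2 or 3 (adjusted p up to 0.0572). Genes of ribosome biogenesis act in the nucleolus and are longer, with a median exon length of 2618 bases, against 703 bases for the cytosolic ribosomal proteins. Of these, 3 of 28 were called lower and none higher, which is 10.7% of the list, with a median of -0.11 in both fits. Nop58, a core protein of box C/D small nucleolar particles, was at 21.9, 23 and 25.9 CPM in metformin livers, against 28.7, 36.3 and 29.5 CPM in basal livers (-0.42 ± 0.11, edgeR adjusted p = 0.0430). Wdr75, a factor of early ribosomal RNA processing, fell by 0.38 ± 0.09 and Nolc1, a nucleolar phosphoprotein, by 0.41 ± 0.11. In the fit without the length trend Nop58 and Wdr75 were called and Nolc1 was not (adjusted p = 0.0673). Of the mitochondrial ribosomal proteins 1 of 52 was called, which is 1.92% of the list and near the 1.94% of all genes tested. This gene, Mrps2, fell by 0.32 ± 0.08 (edgeR adjusted p = 0.0352) and by 0.38 with the length trend removed. All of these 4 calls were lost without metformin replicate 2 or basal replicate 2, and each also without at least 2 other libraries, with an adjusted p of up to 0.330.

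**Figure D3:**
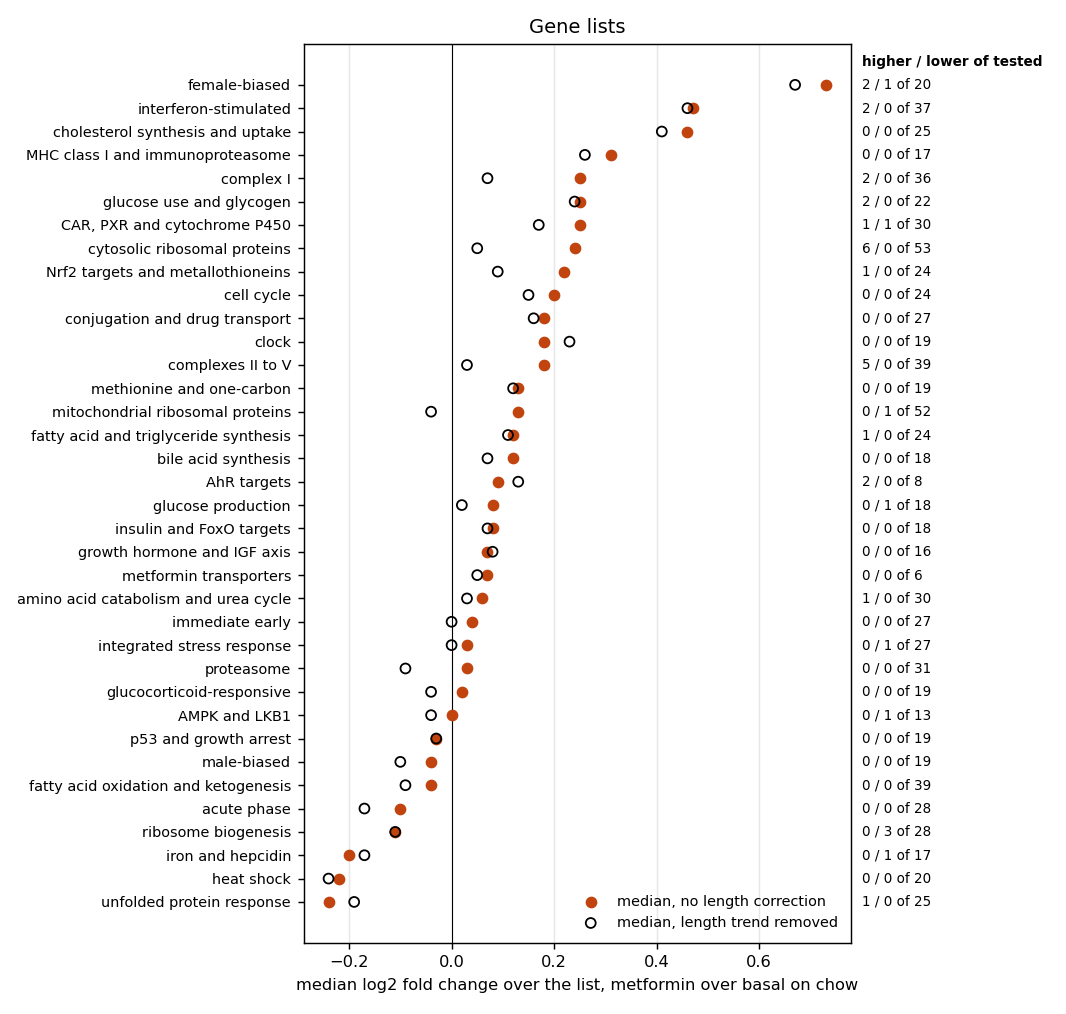
Median log2 fold change of metformin over basal on chow (horizontal axis) for each of 36 gene lists (vertical axis), without correction (filled) and with the exon length trend removed (open); the numbers on the right count members called higher and lower of those tested. The medians of complex I, complexes II to V, both ribosomal protein lists and the proteasome shift left on removal, while those of the female-biased, interferon and cholesterol lists stay above 0.4.

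On the list for synthesis of fatty acids and triglycerides 1 of 24 was called, with or without the length trend. This is 4.17% of the list, beside 1.94% of all genes tested. The called gene was Mid1ip1, a partner of acetyl-CoA carboxylase that promotes its polymerisation. It was at 14.2, 14.6 and 9.81 CPM in metformin livers, against 7.10, 5.77 and 6.48 CPM in basal livers (0.99 ± 0.22, edgeR adjusted p = 0.0102), and 21.8% of its exon words occur in other genes. The call was lost without metformin replicate 1 or 2 or basal replicate 2 or 3 (adjusted p up to 0.0908). Srebf1, the lipogenic transcription factor, had 44.2, 40.4 and 23.6 CPM in metformin livers, against 35.6, 22.8 and 19.1 CPM in basal livers, and overlapped (0.48 ± 0.29, edgeR adjusted p = 0.419). Of 25 genes of cholesterol synthesis and uptake none was called by edgeR, with or without the length trend, or by DESeq2. Of these 3 reached an unadjusted p below 0.05, where 2253 of all 14067 genes did. The median was 0.46, or 0.41 with the length trend removed, and 23 had a positive difference, where 7280 of all 14067 genes did. Insig1, which retains the SREBP complex in the endoplasmic reticulum, was at 86.2, 124 and 86.0 CPM in metformin livers, against 66.1, 63.1 and 53.4 CPM in basal livers, without overlap (0.70 ± 0.38, edgeR adjusted p = 0.364). Standard errors in this list were large, as for Sqle, squalene epoxidase, at 0.83 ± 1.06. In fatty acid oxidation and ketogenesis none of 39 genes was called by edgeR or DESeq2, 3 reached an unadjusted p below 0.05, and the median was -0.04. Insig1 and Sqle were named after their values were seen.

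One liver carried the largest fold change among the called genes. Cyp1a1, a cytochrome P450 that is induced through the aryl hydrocarbon receptor (AhR), was at 1.35, 328 and 0.838 CPM in metformin replicates 1, 2 and 3, against 0.788, 0.908 and 1.01 CPM in basal livers. Cyp1a2, its neighbour and a main P450 of liver, was at 274, 4291 and 257 CPM in metformin livers, against 275, 193 and 206 CPM in basal livers. Metformin replicate 2 was thus the only one of the 6 livers with high values of both genes. The fit gave 6.95 ± 1.09 for Cyp1a1 (edgeR adjusted p = 2.48e-04) and 2.84 ± 0.56 for Cyp1a2 (adjusted p = 0.00391). Without metformin replicate 2 the values were 0.29 (adjusted p = 0.821) and 0.24 (adjusted p = 0.841), and Cyp1a2 also lost its call without basal replicate 2. In a fit of the chow groups alone the adjusted p was 0.107 for Cyp1a1 and 0.137 for Cyp1a2. These 2 were the only called genes among the 8 tested on the AhR list, with or without the length trend. The share of 25.0%, beside 1.94% of all genes tested, thus rests on metformin replicate 2.

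Of the other AhR genes, Nqo1 was also highest in metformin replicate 2, whereas Tiparp and Ahr were not apart in it. Nqo1, a quinone reductase, was at 7.42, 18.3 and 13.7 CPM in metformin livers, against 9.08, 9.99 and 9.77 CPM in basal livers. Tiparp, an ADP-ribosylating repressor of the receptor, was at 3.19, 4.38 and 4.53 CPM in metformin livers, against 4.82, 6.30 and 6.26 CPM in basal livers. The receptor gene Ahr had 52.5, 79.6 and 79.0 CPM in metformin livers, against 91.5, 81.1 and 78.6 CPM in basal livers. Myh2 and Myh4, myosins of skeletal muscle, were also more than 4-fold higher in metformin replicate 2 than in each of the other 5 livers. The 14 skeletal muscle markers summed to 5.48, 105 and 1.33 CPM in metformin livers, against 202, 1.44 and 1.11 CPM in basal livers, and their part in the Cyp1a1 and Cyp1a2 values was not tested. Nqo1, Tiparp and Ahr were named after their values were seen.

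The promoters of both P450 genes are shown for the core of the AhR response element. They are the bases before the start site from RefSeq (GRCm38.p6), Cyp1a1 from chr9:57697363-57697612 on the plus strand and Cyp1a2 from chr9:57683656-57683905 on the minus strand, printed 5′ to 3′. Capitals mark GCGTG, searched on both strands.
Cyp1a1: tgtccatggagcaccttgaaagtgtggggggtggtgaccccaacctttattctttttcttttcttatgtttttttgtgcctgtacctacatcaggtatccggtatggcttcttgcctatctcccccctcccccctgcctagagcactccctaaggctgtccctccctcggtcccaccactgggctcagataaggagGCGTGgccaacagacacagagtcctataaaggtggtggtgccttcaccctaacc
Cyp1a2: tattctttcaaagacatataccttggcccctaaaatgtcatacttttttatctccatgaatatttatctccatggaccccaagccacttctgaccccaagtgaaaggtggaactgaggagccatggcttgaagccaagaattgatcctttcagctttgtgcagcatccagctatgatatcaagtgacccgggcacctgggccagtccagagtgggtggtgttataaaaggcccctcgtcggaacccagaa
GCGTG lies at bases -54 to -50 of Cyp1a1 and is not among these letters of Cyp1a2, and 28.2% of the 32851 windows hold it on either strand. The windows do not reach the distal enhancers of this locus.

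**Figure D4:**
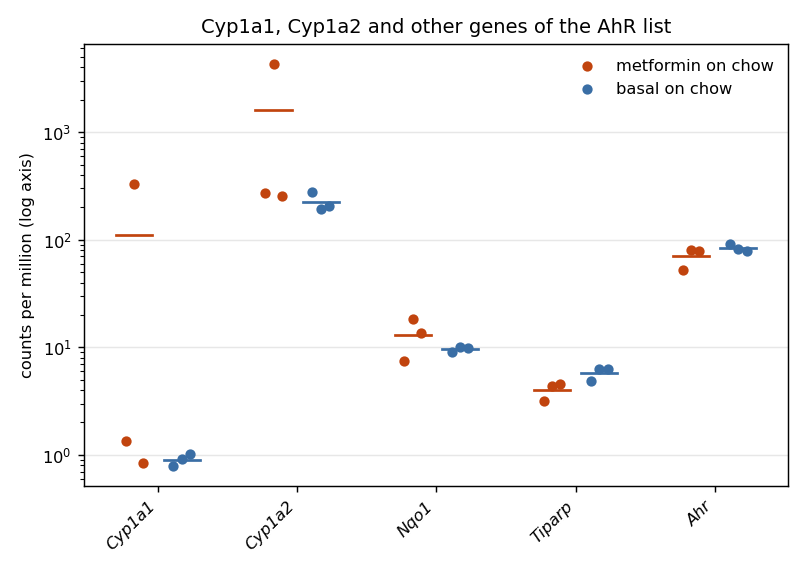
CPM in each library (vertical axis, log axis) for Cyp1a1, Cyp1a2, Nqo1, Tiparp and Ahr (horizontal axis), metformin livers on chow to the left and basal livers on chow to the right of each gene; horizontal lines are group means. Metformin replicate 2 lies at 328 CPM of Cyp1a1 and 4291 CPM of Cyp1a2, while the other metformin livers lie among or next to the basal livers.

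Among transcription factors, Cebpb and Mkl1 fell beside Tead1. Cebpb, a liver-enriched bZIP factor of the acute phase and of fasting, was at 22.9, 31.2 and 34.8 CPM in metformin livers, against 74.4, 45.8 and 55.0 CPM in basal livers (-0.98 ± 0.27, edgeR adjusted p = 0.0446). The call was lost without any one library other than metformin replicate 3, with an adjusted p of up to 0.212. On the HFD diets the metformin difference of Cebpb was -1.07 after 6 weeks (adjusted p = 0.0205) and -1.49 after 16 weeks (adjusted p = 1.61e-04). Mkl1, an actin-regulated coactivator of serum response factor whose exons overlap Sgsm3 on the opposite strand, was at 5.38, 5.47 and 7.59 CPM in metformin livers, against 11, 11.6 and 10.6 CPM in basal livers (-0.85 ± 0.21, edgeR adjusted p = 0.0243). It too was lost without any one library other than metformin replicate 3, with an adjusted p of up to 0.162. Cebpb was the only called gene of 27 on the integrated stress response list, with or without the length trend. This is 3.70% of the list, beside 1.94% of all genes tested. Gdf15 and Fgf21, secreted factors of that response, were at 0.40 ± 0.59 and -0.32 ± 0.58.

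Apol9a, Gamt and Keg1 rose and have fewer than 20% shared exon words. Apol9a, a cytosolic apolipoprotein L, was at 26.7, 29.3 and 10.9 CPM in metformin livers, against 7.59, 5.23 and 6.21 CPM in basal livers (1.80 ± 0.32, edgeR adjusted p = 0.00110). Its paralog Apol9b, which shares 58.1% of its exon words with other genes, was at 1.46 ± 0.22. Gamt, the enzyme that makes creatine from guanidinoacetate (mm9 chr10:79720896-79723713, minus strand), was at 56.2, 59.5 and 33.5 CPM in metformin livers, against 27.8, 16.3 and 13.0 CPM in basal livers (1.37 ± 0.29, edgeR adjusted p = 0.00652). Keg1, a member of the glycine N-acyltransferase family, was at 48.9, 50.2 and 35.9 CPM in metformin livers, against 24.1, 21.5 and 12.3 CPM in basal livers (1.21 ± 0.28, edgeR adjusted p = 0.0154). In each of these 3 genes metformin replicate 3 was the lowest of its group. The groups did not overlap, but this was a condition for naming these genes and is no further support. Apol9a was called in all 6 fits without 1 library. Gamt was lost without metformin replicate 2, basal replicate 2 or basal replicate 3 (adjusted p up to 0.0806), and Keg1 was lost without any of these or without metformin replicate 1 (up to 0.147). Adrb3, the beta-3 adrenergic receptor, was at 8.47, 6.57 and 7.29 CPM in metformin livers, against 4.46, 2.46 and 2.97 CPM in basal livers, and is uncertain with 20.6% shared exon words (1.14 ± 0.26, edgeR adjusted p = 0.0127; up to 0.137 without metformin replicate 1 or basal replicate 2 or 3).

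Of 37 interferon-stimulated genes 2 were called higher, Isg15 and Bst2, which is 5.41% of the list beside 1.94% of all genes tested. The median was 0.47, and 34 had a positive difference, where 7280 of all 14067 genes did. After length removal the median was 0.46 and no gene was called by edgeR, while DESeq2 without that removal called 3. Bst2, tetherin, was at 97.8, 105 and 89.6 CPM in metformin livers, against 59.5, 51.0 and 56.8 CPM in basal livers (0.81 ± 0.18, edgeR adjusted p = 0.0115; 0.0516 with the length trend removed, and up to 0.103 without metformin replicate 2 or basal replicate 2 or 3). Isg15, a ubiquitin-like antiviral protein, had 7.87, 5.59 and 2.22 CPM in metformin livers, against 2.32, 2.62 and 2.12 CPM in basal livers, and metformin replicate 3 lay among the basal livers. Its difference was 1.15 ± 0.31 (edgeR adjusted p = 0.0430), and the call was lost without any one library other than metformin replicate 3 (up to 0.335). All 17 genes of MHC class I and the immunoproteasome had a positive difference, with a median of 0.31 and no call by edgeR in either fit, 7 at an unadjusted p below 0.05, where DESeq2 called 2, B2m and Psme2. The 11 lymphocyte and neutrophil markers in the table summed to 6.77, 4.72 and 5.91 CPM in metformin livers, against 5.97, 3.47 and 6.42 CPM in basal livers. Macrophage and Kupffer cell markers, 16 genes, summed to 428, 228 and 287 CPM in metformin livers, against 304, 345 and 568 CPM in basal livers.

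Sex-biased genes of mouse liver, which respond to the pattern of growth hormone, gave a mixed result. Of 20 tested female-biased genes 2 were called higher and 1 lower, which is 15.0% of the list beside 1.94% of all genes tested, and the median was 0.73. After removal of the length trend 1 was higher and 1 lower, and Cyp2c40 was no longer called (adjusted p = 0.0644). Of 19 male-biased genes none was called by edgeR or DESeq2, 1 reached an unadjusted p below 0.05, and the median was -0.04. The called genes belong to P450 families with near-identical copies and are uncertain. Cyp2c69 was at 14.2, 15.4 and 20.1 CPM in metformin livers, against 7.91, 11.1 and 10.2 CPM in basal livers (0.78 ± 0.18, edgeR adjusted p = 0.0151), and lost the call without metformin replicate 3 or basal replicate 1 or 3 (up to 0.0914). Cyp2c40 rose by 0.68 and kept its call only without metformin replicate 1. Cyp3a44 was at 2.69, 6.45 and 5.82 CPM in metformin livers, against 45.9, 44.5 and 42.1 CPM in basal livers (-3.15 ± 0.54, edgeR adjusted p = 7.89e-04).

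Many of the steepest changes were of this uncertain kind. Mup9, which encodes a major urinary protein and shares 82.4% of its exon words with other genes, was at 209, 392 and 328 CPM in metformin livers, against 2419, 2985 and 2699 CPM in basal livers (-3.12 ± 0.57, edgeR adjusted p = 0.00132). Mup10 fell by 2.37 ± 0.49, whereas Mup19, with 100% shared words, was at 2.34 ± 0.64, a call kept only without metformin replicate 1 (adjusted p up to 0.197). Members of the same family thus went in opposite directions. E030024N20Rik, 62.9% shared, was at 52.4, 51.4 and 60.6 CPM in metformin livers, against 5.72, 6.14 and 5.36 CPM in basal livers (3.25 ± 0.37, edgeR adjusted p = 1.85e-06). In the whole series it ranged from 51.4 to 158 CPM in the 9 metformin libraries and from 2.20 to 18.3 CPM in the 36 others. Gm10012, at 4.08, 4.61 and 4.19 CPM in metformin livers, against 20, 20.9 and 22.2 CPM in basal livers, had the smallest adjusted p of the comparison (-2.29 ± 0.24, edgeR adjusted p = 2.71e-07). Gstp2, Ugt2b37, Gm13253 and Gm6682 rose and Tomm6 fell with 26.1% to 75.2% shared words, and Gstp2 and Ugt2b37 lost their calls without metformin replicate 2, basal replicate 2 or basal replicate 3, Gstp2 also without metformin replicate 3.

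Of the 36 gene lists, 18 had no member called by edgeR, among them heat shock, acute phase, proteasome, clock and bile acid synthesis. Of their 391 tested genes 42 reached an unadjusted p below 0.05, where 2253 of all 14067 genes did, and DESeq2 called 4. Of 25 genes of the unfolded protein response 23 had a negative difference, with a median of -0.24, and only Sec61b was called, as higher (0.58 ± 0.12, edgeR adjusted p = 0.00472); it is uncertain at 20.5% shared words and was not called with the length trend removed (adjusted p = 0.136). Markers of pancreatic acinar cells, which are rich in the same chaperones, differed strongly between the groups without a call. The 19 markers summed to 121, 20 and 8.87 CPM in metformin livers, against 2263, 996 and 370 CPM in basal livers. Of the 19, 18 did not overlap between the groups, where 27.4% of all genes tested did not, 6 reached an unadjusted p below 0.05, and none was called by edgeR or DESeq2. Their part in the unfolded protein response values was not tested.

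The metformin difference on chow was set beside that on the HFD diets, which rests on other livers. Metformin was accompanied by 446 called genes (3.17%) after 6 weeks, 271 higher (1.93%) and 175 lower (1.24%), and by 3992 (28.4%) after 16 weeks of HFD, 2372 higher (16.9%) and 1620 lower (11.5%). Of the 273 genes called on chow, 245 had the same sign after 6 weeks and 218 after 16 weeks of HFD, 81 were called with the same sign on all 3 diets, and 107 were called on neither HFD diet. Of the 27 genes called in every fit on chow, 22 were also called on both HFD diets in the same direction. The same shares over all genes tested are not given here, and fold changes on all 3 diets fell with exon length. These counts are therefore not read as particular to the called genes. The metformin libraries of all 3 diets shared the trend with exon length and were in tables of their own, so agreement between diets and a batch of the metformin libraries cannot be told apart.

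The difference between the diets was itself tested. The metformin effect on chow minus that on 6-week HFD was called for 6 genes (0.0427%), 5 higher on chow (0.0355%) and 1 lower (0.00711%). That on chow minus 16-week HFD was called for 698 genes (4.96%), of which 244 were higher (1.73%) and 454 lower (3.23%) on chow. Of the 273 chow genes, 42 were called for the difference from 16-week HFD and 2 for that from 6-week HFD. These genes were picked by their difference on chow, which is part of both contrasts, so the counts are no separate support. Apol9a, at 1.80 ± 0.32 on chow and 0.33 after 16 weeks of HFD, Gamt, at 1.37 ± 0.29 on chow and -0.02 after 16 weeks, and Adrb3, at 1.14 ± 0.26 on chow and -0.08 after 16 weeks, were called as different (edgeR adjusted p = 0.0428, 0.0403 and 0.0456). In basal livers after 16 weeks of HFD, Apol9a was at 51.3, 40.3 and 40.2 CPM and Gamt at 155, 158 and 119 CPM. These levels lay above every metformin liver on chow. Adrb3, at 9.40, 5.25 and 4.59 CPM in the same basal livers, overlapped the metformin livers on chow. The part of the basal levels in the diet differences was not tested. Tmed5, a cargo receptor of the early secretory pathway, had opposite signs on chow and 16-week HFD. It was at 190, 214 and 260 CPM in metformin livers, against 322, 359 and 347 CPM in basal livers on chow (-0.63 ± 0.14, a call lost without metformin replicate 1 or 2 or basal replicate 2 or 3, edgeR adjusted p up to 0.103), and its metformin difference was 0.72 after 16 weeks of HFD, a difference between diets of -1.35 ± 0.20 (edgeR adjusted p = 0.00109). Fchsd2, which promotes actin assembly at sites of endocytosis, was at 24.2, 24.2 and 21.9 CPM in metformin livers, against 15.9, 14.5 and 17.8 CPM in basal livers on chow, a difference of 0.54 ± 0.15 that missed the threshold on its own (edgeR adjusted p = 0.0550). On HFD its metformin difference was -0.54 after 6 weeks and -0.86 after 16 weeks. The diet differences depended on the fit. With the length trend removed edgeR called 7 and 781 genes. With only the 4 groups compared in the model, edgeR called no gene for either contrast, with 1470 and 2029 genes at an unadjusted p below 0.05, and DESeq2 on all groups called 15 and 1126.

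**Figure D5:**
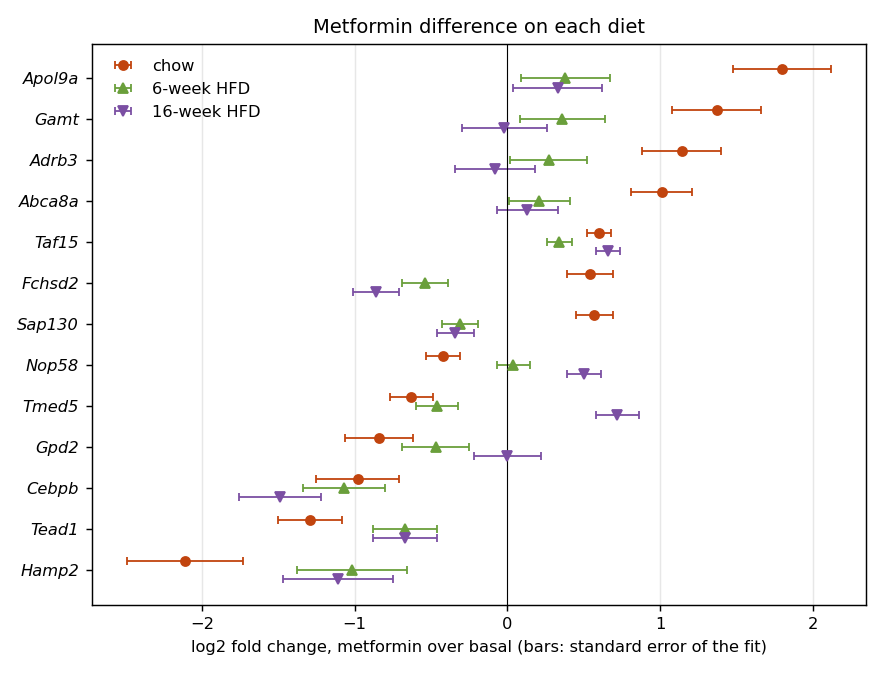
Log2 fold change of metformin over basal (horizontal axis; bars are standard errors of the edgeR fit) for 13 genes (vertical axis) on chow, after 6 weeks and after 16 weeks of HFD. Apol9a, Gamt and Adrb3 lie above 1 on chow and near 0 after 16 weeks of HFD, Fchsd2 and Sap130 lie above 0 on chow and below it on both HFD diets, and Cebpb, Tead1 and Hamp2 lie below 0 on all 3 diets.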

How the data were processed

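PolyA liver RNA had been made into libraries with a kit that does not keep strand and sequenced as paired reads, per the labels' protocols. The authors deposited whole-number read counts per gene, and these raw counts were used for every result. The submitters' processing notes name the build mm9, TopHat 1.4.0, HTSeq and DESeq2 1.0.18, without saying which made which file. Groups came from the sample titles. The members and the gene lists were chosen with earlier results of these data known.

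Genes were kept by filterByExpr (minimum count 10; 14067 of 23227 genes). All 45 libraries, 14 groups, were fitted in one edgeR 4.0.16 quasi-likelihood model with TMM scaling and 1 coefficient per group; p-values were adjusted by Benjamini-Hochberg over all genes tested and called below 0.05. Standard errors were obtained from the log2 fold change and the F statistic. The exact permutation test of 3 against 3 cannot go below 0.1 and was not used. Exon lengths came from the gene models the authors deposited (mm9). A lowess trend (span 0.3) of each library on log2 exon length was entered as an offset in the fits with that trend removed. Words of 40 bases were compared with GENCODE M21 transcripts. Opposite-strand exon overlap was taken from the same gene models. Promoter sequences are from RefSeq. The model was tested on simulated data.

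Named genes were the 12 largest rises and 12 largest falls among calls that averaged at least 5 CPM and did not overlap between groups, the same among genes called also with the length trend removed, up to 3 called members of each of the 36 lists, 14 genes always given, and the 5 smallest adjusted p of each diet contrast. Any other gene in the text, including those called in every fit, was chosen after its values were seen, and some genes the rule names are not reported here. The settings varied were the scaling (RLE), the filter (none), length or length and GC trends removed, only the groups compared, a replicate block, DESeq2 1.42.0 and leaving out each library. The fit with the length trend removed on only the groups compared, and the length correlation without each library, were chosen after seeing the data. R 4.3.3 and Python 3.11.15 were used.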

Additional observations from a re-analysis of the deposited data

Results flagged for a closer look

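These results are given because the metformin difference on chow and on an HFD diet differed by a test of the difference itself in the edgeR fit of all groups. The count was 6 genes against 6-week HFD and 698 genes against 16-week HFD. Values are log2 differences, the effect on chow minus the effect on HFD.

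Against 6-week HFD, the positive differences were 0.81 for 1810013L24Rik, 1.08 for Fchsd2, 0.86 for Pcf11, a pre-mRNA cleavage factor, and 0.88 for Sap130, a Sin3 corepressor subunit. Eno1 had 3.51, rests on few reads and shares exon words with other genes. Gm12070, which shares all its exon words with other genes, had -0.76.

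Against 16-week HFD, the P450 genes had 6.71 (Cyp1a1) and 2.90 (Cyp1a2), both carried by metformin replicate 2 on chow. The other positive differences were 1.47 for Apol9a, 1.39 for Gamt, 1.22 for Adrb3, 1.4 for Fchsd2, 0.91 for Sap130 and 0.86 for 2310067B10Rik. Negative differences included -1.35 for Tmed5, -0.92 for Nop58, -0.91 for Rpl22l1, -0.70 for Armc1 and -0.50 for Wdr75. The groups compared hold 3 libraries each, and no outlier test is given.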

How the results depend on the processing

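The count of 273 genes became 518 with only the groups compared, and 472 with DESeq2. With only the groups compared it was 520 with a replicate block and 148 with a replicate block and the length trend removed. Without 1 library it ran from 66 (basal replicate 2) to 345 (metformin replicate 3), with 134 and 83 without metformin replicates 1 and 2 and 93 without basal replicate 3. Of the 520 under the block, 174 were among the 273. Same-numbered libraries were correlated at -0.0358, -0.199 and 0.292 in their deviations, so the numbers were not taken as pairs, and only replicate 3 matched its own number best. RLE scaling gave 160 higher and 117 lower genes, beside 179 and 94. The correlation with exon length was -0.39 over genes averaging at least 10 CPM and from -0.28 to -0.25 without each library. Against 6-week HFD, 6 calls became 1 with no filter, 0 with only the groups compared, 1 with the replicate block on those groups and 15 with DESeq2, and 0 to 5 without each library, where 800 to 989 genes had an unadjusted p below 0.05 in the edgeR fits with no call. Against 16-week HFD, 698 calls became 314 with length and GC trends removed, 0 with only the groups compared, also with the replicate block on those groups and also with block and length removal, 8 with length removal on only the groups compared, and 1126 with DESeq2. Without each library they ran from 89 to 1381. Unadjusted p below 0.05 held for 2029, 2028 and 2426 genes in those 3 fits with no call. Of 1048 values of the 70 named genes under the alternatives, 227 lost and 18 gained a call and none reversed. Of 52 named genes called, 17 kept the call without each of the 6 libraries. Each group holds 3 libraries, and genes of few reads, such as Eno1, are limited by depth.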
